A study of Mus musculus with 6 samples.

Results

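The low-RNA gated barcodes described here were 976 of 12139 kept barcodes in a CITE-seq dataset of TOM+ cells from inguinal lymph nodes. CITE-seq counts messenger RNA molecules by unique molecular identifier (UMI) and reads oligonucleotide-tagged antibodies on the same cell. A barcode was kept when at most 25% of its UMIs came from mitochondrial genes, its sequence occurred in 1 capture only, and 1 hashtag held at least 80% of its hashtag counts with at least 10 counts. Of the kept barcodes, a low-RNA gated barcode had UMIs of at least 2 of 7 marker genes linked to medullary sinus macrophages (MSMs), no UMI of the lymphocyte genes Cd3e, Cd3g, Ncr1 and Cd79a, and fewer than 1500 genes detected. The members were chosen by these RNA counts, so the gate genes and the number of genes detected are given below as description without a test. Other genes of the same barcodes can follow the gate genes and are therefore not independent of the choice, whereas the hashtag and antibody counts were read from separate libraries.

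All 4 mice carried the CD169Tom alleles on a C57BL/6J background. In these mice Cre expressed from the Siglec1 (CD169) locus switches on tdTomato from the Rosa26 locus. TOM is therefore a lasting record of Siglec1 expression in a cell or its ancestors, whatever the cell expresses when sorted. The labels describe the sorted cells as CD11b hi TOM+. The study used mice of both sexes over 6 weeks of age, and the sex and exact age of these 4 mice are not given in the sources used here. Mice 1 and 2 of the unimmunized group received no immunization. Mice 1 and 2 of the immunized group were taken 9 days after immunization. The study describes subcutaneous hen egg lysozyme coupled to ovalbumin in Sigma Adjuvant System, and chicken gamma globulin in an AS03-like adjuvant. Its method for sorting the sequenced cells names neither. The lysozyme method also transfers SWHEL B cells and OT-II T cells, and whether these mice received them is not stated. Each mouse carried its own hashtag antibody, and the stained cells were pooled and divided over 2 captures, so the mouse was the replicate and each group had 2.

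MSMs line the sinuses through which lymph leaves the node. They express CD169 and, unlike the macrophages of the subcapsular sinus, F4/80, and they take up particles, microbes and dead cells carried in lymph. Scavenger receptors and C-type lectins, among them MARCO and SIGN-R1 (the product of Cd209b), are known markers of this position.

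The hashtags decide which mouse a barcode belongs to, and the antibody tags give the readout that the gate did not use. Both sets are shown 5′ to 3′ in capitals because all 15 bases of each tag are read. The nearest pair of hashtags differed at 11 positions, so a single misread base could not move a barcode to another mouse.
Hashtag 1, unimmunized mouse 1: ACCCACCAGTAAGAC
Hashtag 2, unimmunized mouse 2: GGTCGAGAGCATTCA
Hashtag 3, immunized mouse 1: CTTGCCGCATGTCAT
Hashtag 4, immunized mouse 2: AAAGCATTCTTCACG
CD169: ATTGACGACAGTCAT
CD68: CTTTCTTTCACGGGA
F4/80: TTAACTTCAGCCCGT
CD11c: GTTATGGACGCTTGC
Ly-6c: AAGTCGTGAGGCATG
Ly-6g: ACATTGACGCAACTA

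The 976 members came from all 4 mice, with 465 and 75 in unimmunized mice 1 and 2 and 335 and 101 in immunized mice 1 and 2. The captures contributed 483 and 493. Members held 948 to 8376 UMIs (median 2840) and 521 to 1499 genes (median 1035.5). Median UMIs were 2069 and 2604 in the unimmunized mice and 3527 and 3724 in the immunized mice. The members of unimmunized mouse 2 summed to only 207219 UMIs, against 1115236, 1218449 and 391644 in the other mice, and its values are the least precise. Mitochondrial genes gave a median of 1.35% of a member's UMIs, and the median hashtag count was 837.5. The median antibody count was 133 in members, 102.5 in other barcodes under 1500 genes, 292 in gated barcodes with 1500 genes or more and 182 in all other kept barcodes.

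Members were set beside 3 other classes of kept barcodes. The first was the 1002 other barcodes under 1500 genes (median 2970.5 UMIs), close to the members in depth when pooled. By mouse their medians were 2641.5, 2650, 3260 and 3137 UMIs, above the members in unimmunized mouse 1 and below them in both immunized mice. The second was the 491 full-depth gated barcodes, which passed the same marker gate with 1500 genes or more (median 10305 UMIs). The third was all 11163 other kept barcodes (median 10483 UMIs). Mitochondrial genes gave medians of 2.45% and 2.63% in the first and second class. The full-depth gated barcodes were not a deeper copy of the members alone: a list of 8 monocyte genes summed to 3740, 3988, 3602 and 3086 CPM (a gene's share of all UMIs in the sum, on the usual CPM scale) in the mice in the order unimmunized 1 and 2, immunized 1 and 2, against 280, 256, 158 and 102 CPM in members. Values for 4 mice are given in that order throughout.

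Low-RNA gated barcodes made up a larger part of the kept barcodes in the unimmunized mice. They took 16.4% (95% exact binomial interval 15.1 to 17.9%) and 14.0% (11.1 to 17.2%) of the kept barcodes in unimmunized mice 1 and 2. In immunized mice 1 and 2 they were 8.27% (7.44 to 9.16%) and 2.14% (1.75 to 2.59%). The groups did not overlap, and the 2 immunized mice lay further from each other than the unimmunized mice did. The mean was 15.2 ± 1.75% (SD, n = 2) without and 5.20 ± 4.33% (n = 2) with immunization, a difference of -10.0 percentage points with a two-sided exact permutation p of 0.33, the smallest that 2 against 2 mice can give. The share was similar in both captures, at 15.5% and 17.4%, 14.2% and 13.8%, 8.12% and 8.43%, and 2.11% and 2.17% in the 4 mice. A share depends on every other sorted cell, so fewer members and more of other cells cannot be told apart, and the intervals cover counting error only.

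**Figure D1:**
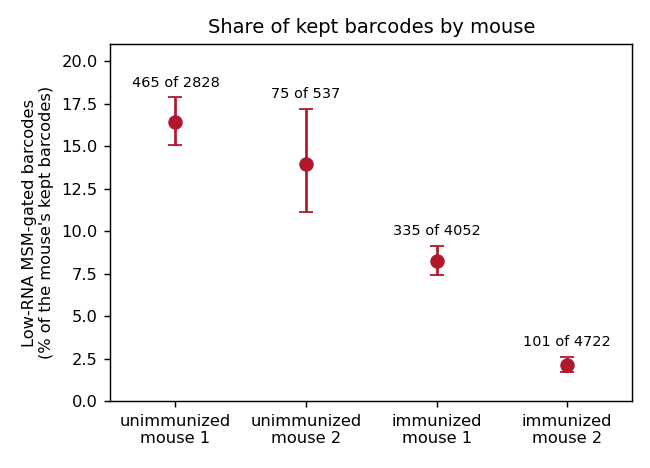
Low-RNA gated barcodes as a percentage of each mouse's kept barcodes. Points are the 4 mice, bars are 95% exact binomial intervals and the numbers give members of kept barcodes. Both unimmunized mice (16.4% and 14.0%) lie above both immunized mice (8.27% and 2.14%).

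The same order held against narrower denominators. Members were 74.0% and 73.5% of the barcodes that passed the marker gate in unimmunized and 59.6% and 57.7% in immunized mice. Of all kept barcodes under 1500 genes they were 59.4%, 55.6%, 44.9% and 32.2%. Both measures separated the groups, so the lower share after immunization was not confined to the denominator of all kept barcodes. Both still count members by the limit of 1500 genes, and depth differed between the groups. Median UMIs of all other kept barcodes were 6600 and 7031.5 in unimmunized and 10071 and 12854 in immunized mice. The part of depth in these shares was not tested.

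The gate rested mainly on 5 of its 7 genes. Pla2g2d, which encodes a secreted phospholipase A2, had a UMI in 76.0% of members. Timd4, a receptor for phosphatidylserine on dead cells, was seen in 65.0%, and Il22ra2, the secreted decoy receptor of IL-22, in 52.6%. Cd209b was seen in 44.2% and Marco in 38.2%, while the related lectins Cd209f and Cd209g were seen in 4.10% and 1.43%. Among other barcodes under 1500 genes, these shares were 22.7% for Pla2g2d, 5.99% for Timd4, 13.7% for Il22ra2, 3.59% for Cd209b and 5.49% for Marco. In full-depth gated barcodes, with more UMIs each, Timd4 (59.1%), Cd209b (24.4%) and Marco (21.6%) were seen in a smaller share than in members, whereas Pla2g2d (84.5%) and Il22ra2 (68.8%) were seen in a larger one. The Cd209 genes are close paralogs in 1 cluster, so reads can be split or lost among them.

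In the GRCm38 (mm10) annotation of GENCODE vM21 the 5 genes lie apart, Marco at chr1:120474538-120505024, Cd209b at chr8:3917655-3926844, Timd4 at chr11:46810800-46844332, Il22ra2 at chr10:19621998-19634681 and Pla2g2d at chr4:138775735-138782046. The gate had a measurable background. Of 316 kept barcodes under 1500 genes with a UMI of a lymphocyte gate gene, 48 (15.2%) also had at least 2 markers. At 1500 genes or more, 393 of 2366 barcodes with a lymphocyte gate gene had at least 2 markers (16.6%), and 491 of 7795 without one (6.30%). Under 1500 genes and without a lymphocyte gate gene, 976 of 1662 barcodes passed (58.7%), 344 had 1 marker and 342 had none. At least 2 markers were thus more frequent without than with a lymphocyte gate gene among shallow barcodes and less frequent among deep ones, and 432 of the 976 members rested on exactly 2 markers. The others had 3 (329), 4 (184), 5 (26) or 6 (5).

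The gate genes did not occur together in all members. Marco and Cd209b were detected together in 34.4% of members (336) and Il22ra2 with Pla2g2d in 45.1% (440), but Marco with Il22ra2 in 3.79% (37) and Cd209b with Il22ra2 in 6.56% (64). Members were therefore also described as marker sets, a division made after these pairs had been seen and used without a test. Set 1, with Marco or Cd209b and no Il22ra2, had 389 members (39.9%). Set 2, with Il22ra2 and neither Marco nor Cd209b, had 434 (44.5%). Another 79 (8.09%) had genes of both sets and 74 (7.58%) of neither.

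The sets also differed in genes that the gate did not read. C1qa, the A chain of the complement component C1q, was at 1625, 1324, 1377 and 1287 CPM in set 1 and at 43.0, 56.7, 61.6 and 60.7 CPM in set 2. The ranges over mice were far apart. Over the pooled sets the chemokine gene Ccl8 was at 5950 against 21.3 CPM, the selenium carrier gene Selenop at 4396 against 81.4, the lectin gene Cd209d at 567 against 5.01 and the folate receptor gene Folr2 at 281 against 2.50 CPM. Lyz2, the lysozyme of macrophages and other myeloid cells, was high in both, at 6195 and 9178 CPM, as was Apoe (4983 and 2522), while Pla2g2d was equal (579 and 577). Adgre1, which encodes F4/80, was at 64.0 CPM in set 1 and 3.76 in set 2.

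Antibody counts followed the same division. The median F4/80 count was 14, 8.5, 8.5 and 8 in the 4 mice in set 1 and 3, 2, 2 and 2 in set 2, where Ly-6g was at 2, 1, 2 and 1. The CD68 median was 27.5, 28.5, 26 and 19 in set 1 and 10, 8.5, 10 and 10.5 in set 2. For CD169 it was 36, 30, 16 and 15 in set 1 and 58, 43, 34 and 28 in set 2. Within each mouse set 1 was thus higher in F4/80 and CD68 and lower in CD169, and it was also lower in CD11c (11, 15, 10 and 7 against 26, 18.5, 44 and 41.5). Of the 2 surface antigens named above for MSMs, set 1 thus had more F4/80 and less CD169 than set 2, and its Marco or Cd209b was set by the division. Set 2 shared Lyz2 and Pla2g2d with set 1 but had little C1q or F4/80 and less CD68. The cells were for this reason named by the rule that chose them and not as MSMs. Malat1, described below, was at 1210, 1160, 179 and 114 CPM in set 1 and at 219, 170, 222 and 87.7 CPM in set 2. Set 1 was thus far higher in both unimmunized mice, lower in immunized mouse 1 and slightly higher in immunized mouse 2. Over the pooled sets Malat1 was at 862 and 193 CPM, with no UMI in 63.5% and 65.2% of their barcodes. Pooled median UMIs were 1858 and 3540, and pooled median mitochondrial shares 3.26% and 0.687%.

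The mix of the sets differed between conditions. Set 1 made up 53.8% and 37.3% of the members without immunization and 28.7% and 14.9% with it. Set 2 made up 32.9%, 37.3%, 54.0% and 71.3%. Any sum over the members of a mouse carries this mix, and in such sums fewer barcodes of a set and less RNA per barcode cannot be told apart.

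**Figure D2:**
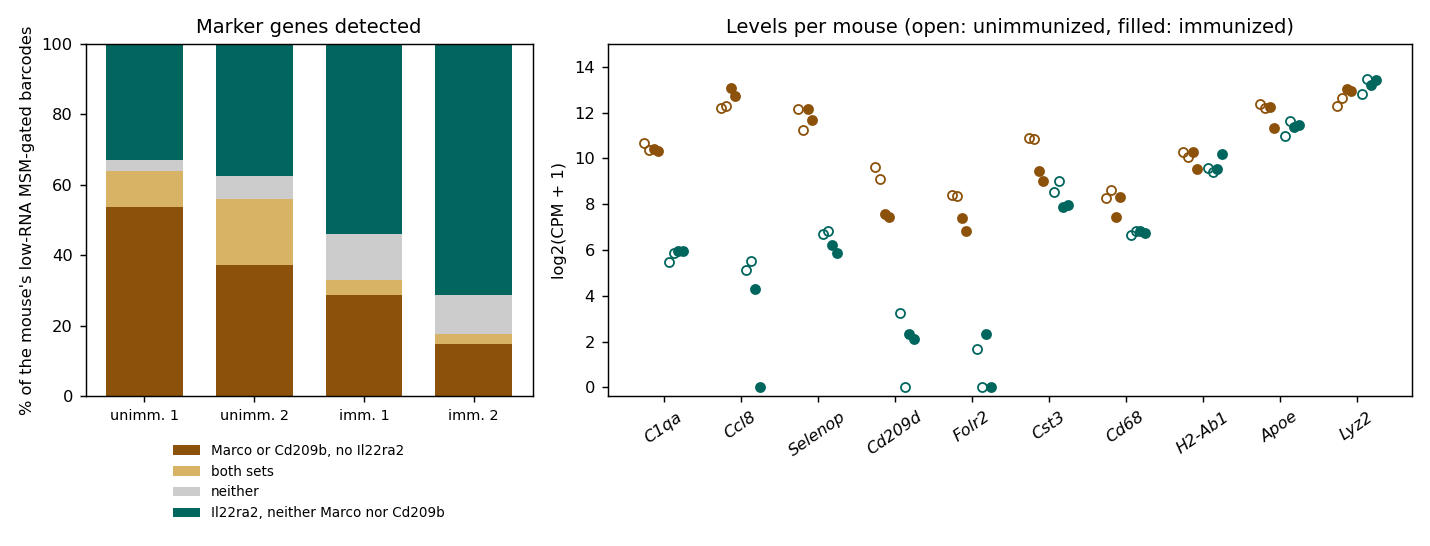
Left, percentage of each mouse's low-RNA gated barcodes by the marker genes detected. Right, levels of 10 genes as log2(CPM + 1) per mouse in barcodes with Marco or Cd209b and no Il22ra2 (brown) and in those with Il22ra2 and neither of the others (green), open for unimmunized and filled for immunized mice. The brown share is 53.8% and 37.3% without immunization and 28.7% and 14.9% with it, and C1qa, Ccl8, Selenop, Cd209d and Folr2 separate the sets while Lyz2 does not.

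Members had far less Malat1 than each other class. Malat1 is a long noncoding RNA (chr19:5795690-5802672, minus strand, lincRNA in the annotation) that stays in the nucleus and is usually among the most abundant RNAs of a cell. Members had 647, 439, 252 and 86.8 CPM, a mean of 356 ± 242 CPM (SD, n = 4). Other barcodes under 1500 genes had 10251, 12265, 7452 and 9886 CPM (9963 ± 1974), and full-depth gated barcodes 8816, 9893, 6449 and 8352 CPM. Every mouse was low in members and high in both other classes, without overlap. The level was 28.0-fold lower than in other barcodes under 1500 genes (log2 fold change -4.70, SE 0.25, edgeR quasi-likelihood adjusted p = 2.4e-08). It was 23.5-fold lower than in full-depth gated barcodes (-4.39, SE 0.25, adjusted p = 3.1e-08) and 33.6-fold lower than in all other kept barcodes (-4.84, SE 0.29, adjusted p = 9.4e-06).

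Malat1 was not detected in most members. Of the 976, 627 had 0 UMIs, 232 had 1, 66 had 2, 17 had 3 and 34 had 4 or more. The share without Malat1 was 64.2%, against 34.9% of other barcodes under 1500 genes, 18.1% of full-depth gated barcodes and 0.569% of the remaining barcodes. When every barcode was thinned to 900 UMIs, which left none out, Malat1 was still seen in 20.4%, 17.3%, 14.3% and 6.93% of members. The same thinning left it in 65.4%, 66.7%, 45.5% and 54.0% of other barcodes under 1500 genes and in 82.2%, 70.4%, 60.8% and 67.6% of full-depth gated barcodes. At equal depth the members of every mouse were below both classes.

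Low Malat1 was not particular to the members. A Malat1 share below 0.2% of UMIs was found in 97.0% of members (947), in 51.6% of other barcodes under 1500 genes (517), in 33.8% of full-depth gated barcodes (166) and in 1.58% of the remaining barcodes (153). Members were 53.1% of the 1783 kept barcodes with this property. Nor did the property end at the threshold of 1500 genes. Among barcodes that passed the marker gate, the median Malat1 share was 0% in every bin up to 1500 to 1750 genes, 0.0172% at 1750 to 2000 genes, 0.398% at 2000 to 2500 and 0.697% at 2500 to 3000. The monocyte list rose over the last 4 of these bins from 208 to 535, 2135 and 4578 CPM. Gated barcodes that were just outside the limit therefore looked like the members, and those far outside carried both Malat1 and monocyte genes. The 59 members with 1400 to under 1500 genes had 764 CPM Malat1 and the 47 gated barcodes with 1500 to under 1600 genes 364 CPM, with 1885 and 2421 CPM of the gate markers.

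**Figure D3:**
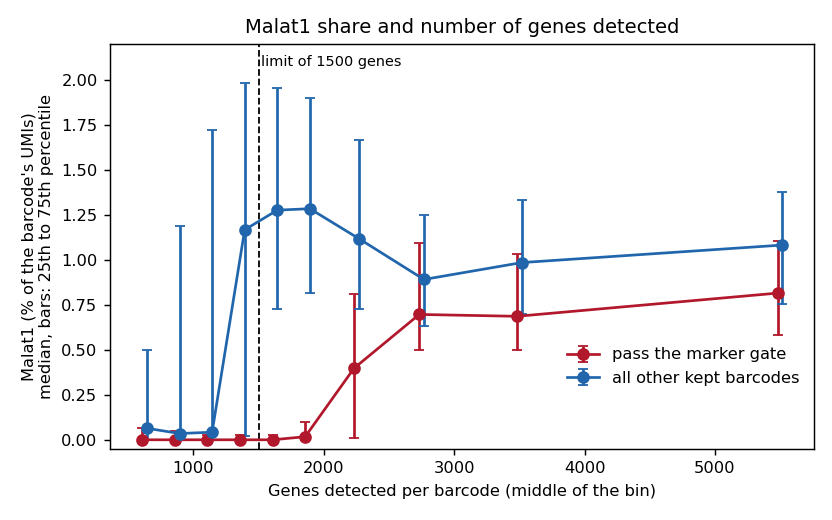
Malat1 as a percentage of a barcode's UMIs against the number of genes detected, in kept barcodes that pass the marker gate (red) and all others (blue). Points are medians of bins of gene number and bars the 25th to 75th percentiles; the dashed line is the limit of 1500 genes. The red median is 0% up to the bin of 1500 to 1750 genes. The blue median is 0.0641%, 0.0350% and 0.0421% in the bins from 500 to 1250 genes and 1.17% in the bin of 1250 to 1500 genes.

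Other nuclear RNAs were low as well. Xist, which coats the inactive X chromosome, was at 73.5, 24.1, 18.9 and 17.9 CPM in members and at 1000, 921, 628 and 625 CPM in full-depth gated barcodes, 23.6-fold lower (log2 fold change -4.22, SE 0.19, adjusted p = 5e-09). Neat1, the RNA core of nuclear paraspeckles, was at 52.9, 116, 21.3 and 12.8 CPM against 284, 174, 186 and 326 CPM in other barcodes under 1500 genes (-2.49, SE 0.27, adjusted p = 2e-05). Kcnq1ot1, an imprinted antisense RNA, was at 2.69 CPM in unimmunized mouse 1 and had no UMI in the members of the other mice, against 88.8, 144, 51.5 and 50.6 CPM. Of the 4 tested genes of the list of nuclear-retained RNAs, 3 were lower in members than in either class of comparison and none was higher.

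Mitochondrially encoded RNA was lower, too. It took 2.82%, 1.64%, 1.29% and 1.11% of the UMIs of members and 3.97%, 3.77%, 3.36% and 5.25% of those of other barcodes under 1500 genes. mt-Co1, a core subunit of cytochrome c oxidase, was at 4034, 2268, 1877 and 1718 CPM in members against 6674, 6890, 5132 and 8733 CPM (-1.27, SE 0.17, adjusted p = 8.3e-05). All 13 mitochondrially encoded genes were lower at this threshold. In contrast, all 20 nuclear genes of the respiratory chain were higher. Cox5a, for example, was at 1618, 1646, 1643 and 1478 CPM against 811, 745, 1206 and 899 CPM (1.07, SE 0.12). Of the 20 respiratory chain genes 16 were also higher when total counts set the scale. The lower mitochondrial share was not seen in every comparison pooled over mice. The pooled median share of set 1 (3.26%) was above that of other barcodes under 1500 genes (2.45%) and that of set 2 (0.687%) below it. By mouse the medians of those other barcodes were 3.41%, 2.72%, 1.25% and 2.52%. Unimmunized mouse 1 gave 250 of the 389 set 1 barcodes, and the sets were not compared by mouse here. Pooled gated barcodes of 500 to 750 genes had a median of 3.59% against 1.67% in those that failed the gate.

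Against other barcodes under 1500 genes, 1582 of 9567 genes outside the gate were higher in members (16.5% of those tested) and 1966 lower (20.5%) at an adjusted p of 0.05. The split depended on scaling: with total counts in place of TMM factors, 718 were higher and 2582 lower, and the median log2 fold change of all genes moved from -0.05 to -0.31. Counts for lists are read against these shares. Where total-count scaling changed a list's picture, its counts are given.

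Of 16 tested macrophage genes outside the gate 7 were higher and none lower, with a median log2 fold change of 1.19 (7 and 0 under total counts). Lyz2 was at 6240, 9294, 9351 and 10418 CPM in members and at 3834, 2898, 5659 and 7127 CPM in the other barcodes (1.17, SE 0.16, adjusted p = 0.00012). Aif1, an actin-binding protein of macrophages, was at 1480, 1819, 1648 and 1708 against 511, 571, 1300 and 1154 CPM. In both genes every mouse was higher in members, although for Lyz2 the class ranges overlapped. Vsig4 and Cd163, which mark resident macrophages of other tissues, had no UMI in members. C1qa was higher in the sums of 3 mice and lower in immunized mouse 2 (788, 434, 336 and 176 against 127, 144, 256 and 306 CPM), the mouse with the smallest part of set 1.

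The largest rises outside the gate included genes that were high in set 1. Ccl8 (chr11:82115185-82116799), a chemokine that binds CCR8 in mice, was at 2149, 1597, 1733 and 600 CPM against 207, 307, 284 and 30.9 CPM, 7.34-fold higher (3.15, SE 0.69, adjusted p = 0.0029). Folr2 (chr7:101839988-101857194) was at 156, 111, 38.6 and 10.2 against 15.2, 6.01, 5.80 and 1.40 CPM (3.33, SE 0.63, adjusted p = 0.001). Cox4i2, an alternative subunit of cytochrome c oxidase, was at 341, 188, 191 and 130 against 39.7, 6.01, 51.5 and 7.02 CPM (2.97, SE 0.42, adjusted p = 0.00013). All 3 were higher in members of each mouse, and their levels in members were lowest in immunized mouse 2. Bpifb3 (3.67), Cd209d (3.28), Bpifb2 (3.26), Cbr2 (3.10), Gbp2b (2.50), Siglech (2.38) and Selenop (2.34) completed the 10 largest log2 rises among 751 genes at 50 CPM or more that rose in all 4 mice. Bpifb2 (chr2:153875045-153895270) and Bpifb3 (chr2:153918230-153932996) lie near each other and belong to the family of lipid-binding BPI-fold proteins. Without unimmunized mouse 1, which held 465 of the 976 members, Folr2, Cd209d, Ccl8, Cbr2, Gbp2b, Siglech and Selenop kept their direction but missed the threshold. The reason for these lost calls was not tested.

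Genes for lipid and iron handling included rises that were seen in every mouse. Apoe, the main apolipoprotein of macrophages, was at 3502, 3441, 3103 and 2689 CPM against 1023, 673, 1344 and 1109 CPM (1.88, SE 0.22, adjusted p = 3.5e-05), and Apoc1 (2.09) and the prostaglandin-degrading enzyme Hpgd (1.88) rose with it. In all, 6 of 16 lipid genes were higher and 2 lower, with a median of 0.05 that became -0.20 under total counts. Of 12 iron and heme genes 7 were higher and none lower, with a median of 0.73. Hmox1, which breaks down heme, was at 369, 169, 240 and 227 CPM against 60.7, 96.2, 128 and 107 CPM (1.75, SE 0.24, adjusted p = 0.00011). The ferritin light chain gene Ftl1 was at 14981, 12832, 13795 and 11449 against 6408, 5609, 10023 and 9965 CPM (1.03, SE 0.11). The members of every mouse exceeded every mouse of the other class for Apoe, Hmox1 and Ftl1.

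Complement and lysosome genes pointed the same way in part. Of 13 complement genes 5 were higher and none lower, among them C1qc (1.83), properdin (Cfp, 1.42) and factor B (Cfb, 1.12). C1qa, C1qb and C1qc are also on the macrophage list, so these counts are not separate. The complement list summed to 2857, 1959, 1880 and 1430 CPM in members against 686, 607, 1391 and 1685 CPM, lower in immunized mouse 2. Cfp was at 248, 236, 274 and 225 CPM in members against 80.6, 84.2, 139 and 160 CPM. Of 23 lysosome genes 10 were higher and 1 lower, and 6 and 2 under total counts. Cd63, a tetraspanin of lysosomes, was at 521, 478, 502 and 470 against 148, 168, 229 and 246 CPM (1.62, SE 0.16, adjusted p = 1.1e-05) and hardly varied between mice in members. The protease gene Ctsb rose by 1.15 on the log2 scale.

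Ribosomal protein genes rose in number more than in size. Of 82 tested, 61 were higher and none lower with a median of 0.38, but only 18 were higher and 2 lower under total counts. As a share of UMIs they were 30.2%, 32.9%, 36.8% and 37.3% in members and 30.7%, 32.2%, 32.9% and 30.1% in the other barcodes, so that the unimmunized mice overlapped and both immunized mice were higher in members. Pseudogene copies can draw reads from these genes. The most abundant single messages of members were those of the actin-binding peptide Tmsb4x (47782 CPM on average), the ferritin heavy chain Fth1 (25823), Tpt1 (13524) and Ftl1 (13264).

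Antigen presentation genes were lower. Of 8 MHC class II genes 6 were lower and none higher with a median of -0.73, and of 10 MHC class I genes 7 were lower and 1 higher. Cd74, the invariant chain that loads class II molecules, was at 2635, 2220, 2692 and 3210 CPM in members against 5774, 6595, 5760 and 7500 CPM, 2.38-fold lower (adjusted p = 5.5e-05). H2-Ab1 was at 964, 796, 822 and 1031 against 1818, 2026, 1833 and 2674 CPM (-0.95). No mouse overlapped between the classes for either gene. Immediate early and heat shock genes were lower in 9 of 15 cases and higher in none (median -1.74).

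The remaining lists moved both ways or little. Scavenger and lectin receptors outside the gate were higher in 5 and lower in 2 of 13, though 2 and 3 under total counts. Chemokines were higher in 3 and lower in 6 of 18, among the higher Ccl12 with 178, 183, 78.8 and 125 against 19.9, 36.1, 76.2 and 14.0 CPM (2.21, SE 0.48) and among the lower Ccl5 (-2.47). Genes for uptake of apoptotic cells were higher in 4 and lower in 6 of 16, interferon response genes in 2 and 4 of 20, myeloid transcription factors in 7 and 6 of 18, cytoskeleton and adhesion genes in 7 and 7 of 16, and cell division genes in 1 and 1 of 13. None of 13 glycolysis genes passed the threshold (edgeR).

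The gate required some lymphocyte markers to be at 0, and the 316 kept barcodes under 1500 genes with such a marker fell into the other barcodes. Lower lymphocyte genes in members than in that class therefore follow at least in part from the rule. Against other barcodes under 1500 genes, all 11 T cell genes were lower, as were 5 of 8 γδ T cell genes, 8 of 9 NK cell genes and 7 of 9 B cell genes. Full-depth gated barcodes passed the same lymphocyte gate. Compared with them, 0 of 11 T cell, 1 of 8 γδ T cell, 3 of 9 NK cell and 0 of 9 B cell genes were lower. The T cell list summed to 63.7, 57.9, 26.3 and 10.2 CPM in members. The B cell list did not vanish: Igkc, the kappa light chain and its most abundant member, was at 704, 680, 887 and 751 CPM, and Ighm at 717, 531, 439 and 345 CPM. Both were higher than in full-depth gated barcodes (log2 fold change 1.94, SE 0.38, adjusted p = 0.001 for Igkc), and their part in other results was not tested. Against all other kept barcodes 2 of 9 B cell genes were higher and none lower, and the list summed to 1501, 1279, 1385 and 1139 CPM in members against 648, 677, 786 and 175 CPM. Neutrophil genes were lower in 6 of 9 cases. S100a8, an alarmin of neutrophils, was at 115, 304.03, 9.03 and 10.2 CPM against 1439, 132, 1188 and 2106 CPM, so that unimmunized mouse 2 went the other way. Of 8 monocyte genes 5 were lower and of 8 dendritic cell genes 2. No red cell gene passed the filter on low counts, with a sum of at most 1.64 CPM in any mouse, and of 2 tested lymphatic endothelial genes 1 was lower.

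The genes of largest fall against the other barcodes under 1500 genes were again mainly lymphocyte genes and noncoding RNAs, namely Gm31243, Gm30211, Kcnq1ot1, Fcer2a, Gimap3, Lck, Gzma, Ebf1, Siglecg and Ly6d. For the lymphocyte genes among them the same limit of the gate applies. Gm30211 had no UMI in members. Gzma, a granule protease of cytotoxic lymphocytes, was at 9.86, 9.65, 1.64 and 5.11 CPM against 493, 463, 374 and 9.83 CPM.

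Against full-depth gated barcodes, 7 of the 10 largest rises were the same genes as against other barcodes under 1500 genes, and monocyte genes were low in members. Of 9567 genes 1748 were higher (18.3%) and 2221 lower (23.2%), or 884 and 3290 under total counts. All 8 monocyte genes were lower with a median of -5.11. Plac8 was at 170, 183, 113 and 71.5 CPM against 2469, 2344, 2301 and 2238 CPM (-3.84, SE 0.20, adjusted p = 1.7e-08). Ly6c2, which encodes the Ly-6C antigen of classical monocytes, was at 17.9, 29.0, 9.03 and 7.66 against 352, 677, 434 and 316 CPM (-4.71, SE 0.35, adjusted p = 4.4e-07). Ace (-6.57), Gm9733 (-6.21), Chil3 (-5.52), Sirpb1c (-4.20), Ear2 (-4.10), Gm26917 (-4.10) and Gpr141 (-4.01) were the other large falls beside Malat1 and Xist.

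Class II genes were far lower than in that class, 7 of 8 with a median of -2.03. Cd74 was at 13558, 13953, 13298 and 17234 CPM in full-depth gated barcodes (-2.12, SE 0.13). Iron and heme genes were higher in 7 and lower in 1 of 12, ribosomal protein genes higher in 78 of 82 and lower in none, and nuclear respiratory chain genes higher in 18 of 20 (10 under total counts) and lower in none. Ftl1 (1.34), Fth1 (1.30) and Hmox1 (2.01) rose and Ctss, a protease that cuts the invariant chain, fell by 1.63 on the log2 scale. The largest rises were Cbr2 (3.53), Bpifb3 (3.34), Bpifb2 (3.25), Ccl8 (3.23), Folr2 (2.99), Cox4i2 (2.93), Igf1 (2.66), Enpp1 (2.39), Siglech (2.29) and Cmah (2.27). Enpp1, an enzyme that cuts extracellular nucleotides, was at 183, 111, 164 and 181 CPM against 28.5, 26.6, 76.9 and 27.1 CPM, higher in members of every mouse. Macrophage genes outside the gate were higher in 3 and lower in 4 cases, lysosome genes in 2 and 9, complement genes in 1 and 3, scavenger and lectin receptors in 1 and 6, lipid genes in 4 and 5, chemokines in 3 and 7, cytoskeleton genes in 5 and 8, and B cell genes in 2 and 0.

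Against all other kept barcodes, 5901 of 10621 genes were called (55.6%), 2656 of them higher and 3245 lower, or 1613 and 4642 under total counts. Ccl8 was at 61.1, 29.9, 66.6 and 16.5 CPM in those barcodes (5.49, SE 0.54, adjusted p = 5.8e-05) and Folr2 had a log2 fold change of 5.60. Among genes at 50 CPM or more, the gate genes Cd209b, Marco, Timd4, Pla2g2d and Il22ra2 ranked 1, 6, 7, 10 and 13 by fold, a consequence of the gate.

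**Figure D4:**
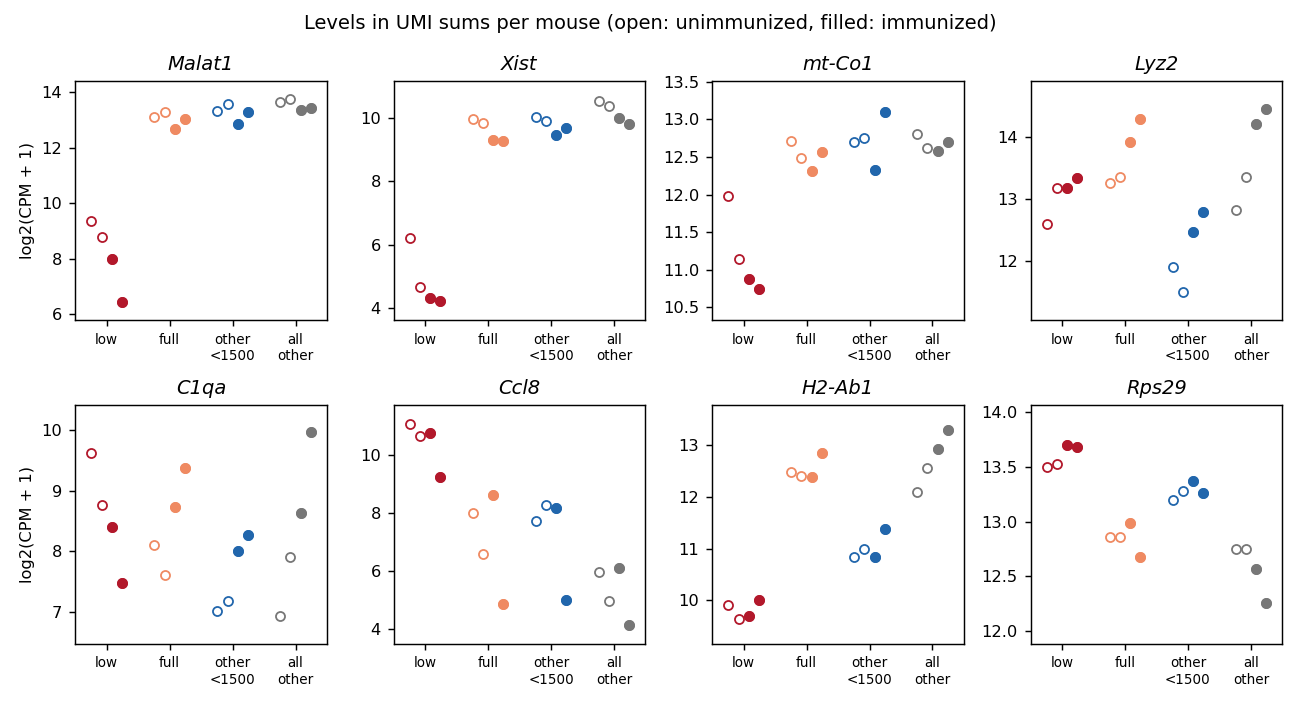
Levels of 8 genes as log2(CPM + 1) in UMI sums of each mouse for low-RNA gated barcodes, full-depth gated barcodes, other barcodes under 1500 genes and all other kept barcodes. Each point is 1 mouse, open for unimmunized and filled for immunized. Malat1 and Xist of members lie below every other point, and C1qa is highest in unimmunized mouse 1 among the members but in immunized mouse 2 among the other classes.

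The antibodies gave a readout outside the gate. For each barcode the count of every antibody was expressed as a centred log ratio, that is, relative to the others on it, and the ratios were averaged per mouse. CD169, the antigen whose locus drives the Cre, was at 0.978, 0.937, 0.734 and 0.732 in members and 0.586, 0.493, 0.153 and -0.172 in other barcodes under 1500 genes. Members were higher in 4 of 4 mice and the classes did not overlap. The difference was 0.580 ± 0.230 (SD, n = 4; two-sided exact sign-flip p = 0.12, the smallest that 4 mice can give, 0.188 adjusted over the 6 antibodies within this class). Siglec1 RNA was sparse, at 28.7, 14.5, 14.8 and 12.8 CPM, with a log2 fold change of 0.88 that missed the threshold (adjusted p = 0.12) and passed it when classes were paired by mouse (0.94, adjusted p = 0.037), and the listed Tomato transcript was at 7.39 CPM at most.

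CD68, a lysosomal glycoprotein of macrophages, was at 0.174, 0.280, 0.0918 and -0.00581 in members against -0.387, -0.336, -0.467 and -0.566. It was higher in 4 of 4 mice than in each of the other classes, by 0.574 ± 0.0285 against other barcodes under 1500 genes (n = 4, exact sign-flip p = 0.12), the most even difference of the 6 antibodies. Its RNA was higher than in those barcodes, at 195, 208, 123 and 115 CPM against 73.6, 48.1, 89.2 and 103 CPM (1.21, SE 0.20, adjusted p = 4e-04). Against full-depth gated barcodes the antibody difference rested on the ratio, since median CD68 counts were 19, 18, 13 and 11 in members and 20, 16, 15 and 10.5 in that class, and log2 of the mean count differed by 0.0176. Cd68 RNA was higher in 2 mice and lower in 2 there (-0.03, SE 0.18, adjusted p = 0.92). Ly-6c was lower in 4 of 4 mice, at 0.797, 0.998, 1.04 and 1.15 against 1.48, 1.73, 1.64 and 1.96, a difference of -0.706 ± 0.0899. Its median counts were close, at 35, 34, 35 and 35 against 34, 36, 34 and 40, while log2 of the mean count differed by -0.819. Ly6c2 RNA was lower as well (-2.78, SE 0.38).

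The direction of F4/80 depended on the scale. Its median count was 10, 4, 3 and 3 in members and 3, 2.5, 2 and 2 in other barcodes under 1500 genes, higher in members of every mouse. Its centred log ratio was -0.502, -0.925, -1.14 and -1.16, with a mean difference of -0.121 from those barcodes, higher in unimmunized mouse 1 and lower in the other 3. With log2 of the mean count the difference was 0.578. Adgre1 RNA was at 41.2, 14.5, 12.3 and 0 CPM, against a mean of 82.8 in all other kept barcodes, a different class from that of the antibody values above. In that class comparison the mean difference in the F4/80 ratio was -0.300, lower in 3 mice and higher in 1. With log2 of the mean count it was 0.157. CD11c was at 0.0159, 0.263, 0.820 and 1.00, close to the other barcodes under 1500 genes (mean difference -0.0379) and below full-depth gated barcodes in every mouse (-0.346). Ly-6g, an antigen of neutrophils, was at -1.46, -1.55, -1.55 and -1.72, lower than in other barcodes under 1500 genes by a mean difference of -0.288 and higher than in full-depth gated barcodes by 0.324, each in 4 of 4 mice (exact sign-flip p = 0.12 each, and -0.0638 against the latter with log2 counts).

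**Figure D5:**
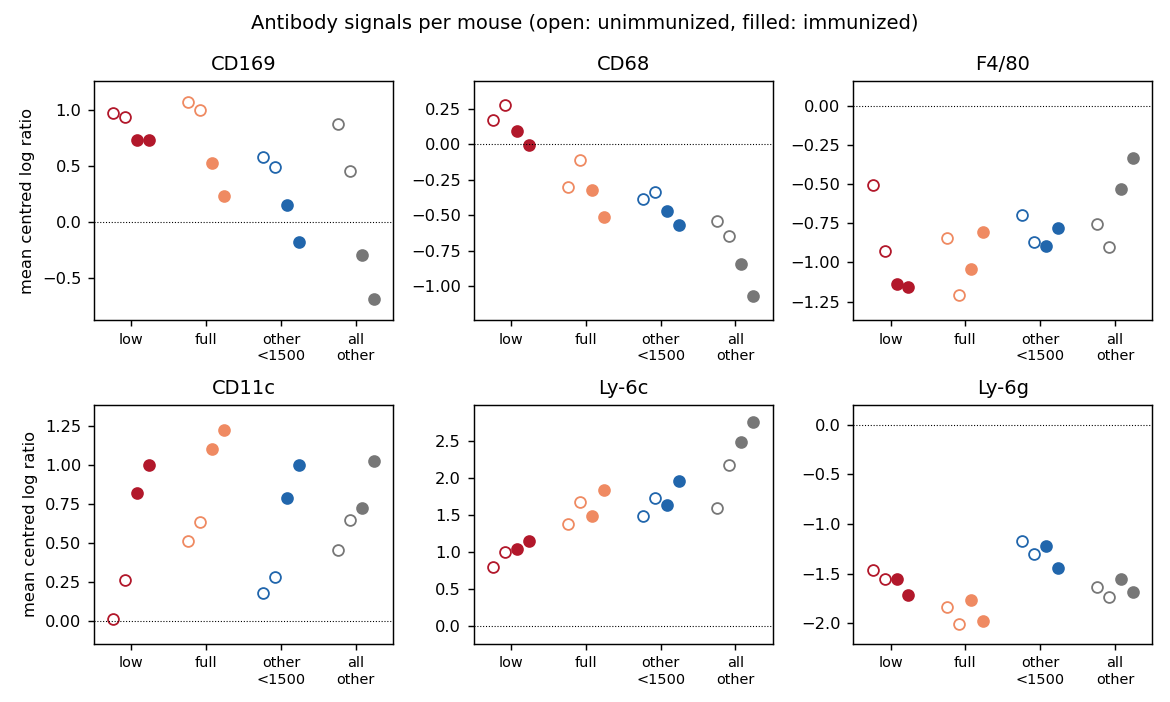
Mean centred log ratio of 6 antibodies per mouse in the 4 classes of barcodes, open for unimmunized and filled for immunized mice. CD68 is higher and Ly-6c lower in members of every mouse than in the other classes, and F4/80 of members is highest in unimmunized mouse 1 (-0.502).

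Members of immunized and unimmunized mice were then compared gene by gene. Of 9567 genes 62 were higher (0.648%) and 14 lower (0.146%) after immunization at an adjusted p of 0.05. These counts depended on the scaling and on the mice included. With total counts as scaling, 2 were higher (Cst7 and Tspo) and 132 lower, 16 of those 134 being among the 76 of the TMM fit, and the median of all genes moved from -0.07 to -0.46. With either unimmunized mouse left out no gene passed in edgeR, in a fit of 1 mouse against 2 that took the spread from all sums and assumed that the lone mouse varied like the rest. The mix of marker sets given above and the median UMIs moved with the condition, and their part in these differences was not tested.

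Cst7, the protease inhibitor cystatin F, was at 9.86 and 14.5 CPM in unimmunized and 70.6 and 51.1 CPM in immunized mice (2.94, SE 0.44, adjusted p = 0.015). Tspo, a protein of the outer mitochondrial membrane, was at 387 and 338 against 623 and 684 CPM (1.21, SE 0.15, adjusted p = 0.0069). These groups did not overlap, and both genes were also called under total counts. Within set 2, Cst7 was at 21.5, 22.7, 87.0 and 37.1 CPM, the same order of the groups.

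Of 8 class II genes 3 were higher, although none was under total counts. H2-DMa, a chaperone of peptide loading, was at 165 and 125 against 231 and 286 CPM (1.14) and H2-Aa at 1051 and 888 against 1432 and 1800 CPM (1.10, SE 0.19, adjusted p = 0.025). Vim, an intermediate filament gene, was at 1338 and 1554 against 1937 and 2791 CPM (1.08, SE 0.17, adjusted p = 0.016), and Fth1 at 20641 and 20510 against 29808 and 32333 CPM (0.96, SE 0.19, adjusted p = 0.034). Vim and H2-DMa kept this order within set 2, where Vim was at 1755, 1655, 2145 and 2789 CPM and H2-DMa at 129, 113, 233 and 277 CPM. H2-Aa (979, 862, 1411 and 1949 CPM) and H2-Eb1 (930, 839, 1318 and 2024 CPM) kept it there as well. In set 1 the order held for H2-DMa (197, 98.1, 286 and 429 CPM), but the groups overlapped for Vim (859, 1209, 1207 and 2116 CPM), H2-Aa (1202, 1177, 1795 and 972 CPM) and H2-Eb1 (1121, 1389, 1740 and 1258 CPM). Bcl2a1d (1.33), Anapc15, Svbp, H2-Eb1 (1.07) and Fam104a were the other large rises, the first with close paralogs that share reads.

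Among the falls, Bpifb2 was at 214 and 101 CPM in unimmunized and 10.7 and 7.66 CPM in immunized mice (-3.72, SE 0.57, adjusted p = 0.015). Cst3, the secreted protease inhibitor cystatin C, was at 1037 and 951 against 333 and 258 CPM (-1.36, SE 0.27, adjusted p = 0.034). Ptprc, which encodes the pan-leukocyte antigen CD45, was at 149 and 111 against 38.6 and 30.6 CPM (-1.53, SE 0.22, adjusted p = 0.015). For Cst3 the order of the groups held within both sets, at 1889, 1831, 695 and 515 CPM in set 1 and 367, 510, 237 and 246 CPM in set 2. Bpifb2 was at 459, 245, 51.2 and 85.8 CPM in set 1 but at 4.30, 0, 1.34 and 0 CPM in set 2, where it was nearly absent and the groups overlapped. Bpifb3 (-2.77), Slfn5 (-2.35), Ddx60 (-2.07), Parp14 (-1.65), Rsrp1 (-1.58) and Ifi204 (-1.38) were the other falls with separate groups, of which Slfn5, Ddx60, Parp14 and Ifi204 are known to be induced by interferon. Of 20 listed interferon response genes 2 were lower and none higher, and 5 were lower under total counts.

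Ribosomal protein genes made up 34 of the 62 rises (34 of 82 tested, median 0.60), but none was called under total counts and 7 under RLE factors. Their share of UMIs was 31.5 ± 1.90% (SD, n = 2) in unimmunized and 37.1 ± 0.361% (n = 2) in immunized mice, groups that did not overlap (exact permutation p = 0.33). The mitochondrial share differed by -1.03 percentage points, also without overlap. Malat1 had a log2 fold change of -1.23 (SE 0.33) after immunization that missed the threshold (adjusted p = 0.099) and passed it under total counts (-1.62, adjusted p = 0.030). In set 1 it was at 1210 and 1160 CPM in unimmunized and 179 and 114 CPM in immunized mice. In set 2 it was at 219 and 170 against 222 and 87.7 CPM, so the groups overlapped there.

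Few genes of the other lists passed the threshold for immunization: nuclear respiratory chain and cytoskeleton genes had 2 rises each, and the iron, lipid, transcription factor, immediate early and cell division lists 1 each, with no fall. The rise of the lipid list and that of the transcription factor list were the same gene, Nr1h3. No macrophage, complement, lysosome, scavenger, chemokine, apoptotic uptake, class I, glycolysis, mitochondrial or nuclear-retained gene passed in edgeR, nor did any marker of T, γδ T, NK or B cells, neutrophils, monocytes, dendritic cells or lymphatic endothelium. With 2 mice a group this does not show that they were unchanged. The summed shares of nuclear-retained RNA (0.0705%, 0.0555%, 0.0273% and 0.00996% of UMIs), neutrophil genes (0.0287%, 0.0709%, 0.00681% and 0.00613%) and monocyte genes (0.0280%, 0.0256%, 0.0158% and 0.0102%) were lower in both immunized mice, without overlap. So was the summed share of the T, γδ T, NK and B cell lists (0.192%, 0.173%, 0.158% and 0.126%). Ccl8 (-0.28, adjusted p = 0.94) and Apoe (0.11, adjusted p = 0.92) were not separated from 0 in the sums. In set 1, which held nearly all Ccl8, it was at 4648 and 5034 CPM in unimmunized and 8749 and 6720 CPM in immunized mice, higher in both. The antibody ratios changed by -0.225 for CD169, -0.184 for CD68, -0.434 for F4/80, 0.772 for CD11c and 0.196 for Ly-6c (-0.0317 with log2 counts, from median counts of 35, 34, 35 and 35), each with ratios of groups that did not overlap and an exact permutation p of 0.33, the smallest possible, and by -0.126 for Ly-6g (0.667). Within the marker sets, whose mix differed between the groups, CD68 ratios overlapped between groups in both sets (0.422, 0.571, 0.646 and 0.505 in set 1). CD11c and F4/80 ratios overlapped in set 1 (-0.381, 0.0300, -0.149 and -0.134 for CD11c). In set 2 CD11c was higher in both immunized mice (0.611, 0.480, 1.22 and 1.23) and F4/80 was lower in both (-1.12, -1.25, -1.47 and -1.37). CD169 was lower in both immunized mice in either set.

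Whether immunization changed members differently from full-depth gated barcodes was tested as an interaction. No gene passed at an adjusted p of 0.05 in the main edgeR fit, and 487 of 9567 had an unadjusted p under 0.05. DESeq2 called 3, and edgeR with the mouse as a replicate block also called 3. In the main fit none of the changes above was thus shown to differ from those in full-depth gated barcodes.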

How the data were processed

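Cells of all 4 mice were pooled and run as 2 captures, each with an RNA, an antibody and a hashtag library. The authors made the deposited UMI counts with Cell Ranger 4.0.0 and its aggr step on mm10, and the deposited antibody and hashtag counts with CITE-seq-count. The sources used here do not state whether aggr equalized reads between captures. Of 18662 barcodes, 1242 shared their sequence between captures and were left out, since hashtag tables carry no capture ending. No doublet caller was run beyond the hashtag rule.

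The members and gene lists were chosen with earlier results of these data known. The marker sets, the full-depth class gated again after thinning, and total-count scaling were chosen after seeing the data.

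Raw counts were summed per mouse and class (16 sums, or 8 against all other barcodes) and tested with edgeR 4.0.16 (R 4.3.3, TMM, filterByExpr, quasi-likelihood, Benjamini-Hochberg adjustment at 0.05), with gate genes left out of the calls. The sums of a mouse come from the same animal, which pairs classes by design; deviations of members and other classes of the same mouse correlated at 0.0122 to 0.0696, and a paired fit was also run. Scripts were tested on simulated counts with known changes. CPM values use total counts. Antibodies were compared within mice by exact sign-flip tests and between groups by exact permutation tests, all two-sided. Alternatives were DESeq2 1.42.0, RLE and total-count scaling, no filter, other hashtag, mitochondrial, gene and marker limits, each capture, the mouse as a block, and leaving out each mouse.

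Named genes were the gate genes, the antibody target genes, Malat1, Neat1 and mitochondrial genes, abundant list members, and the 10 largest rises and falls per comparison among called genes with at least 50 CPM in the higher class that agreed in direction in every mouse.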

Additional observations from a re-analysis of the deposited data

Results flagged for a closer look

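In the following differences between members and another class the unimmunized mice moved one way and the immunized mice the other. None of these contrasts between conditions was tested, and values stand in the order unimmunized mice 1 and 2, immunized mice 1 and 2. The CD11c ratio of members minus other barcodes under 1500 genes was -0.165, -0.0174, 0.0284 and 0.00238. The CD169 ratio minus that of full-depth gated barcodes was -0.0951, -0.0700, 0.201 and 0.499, and the F4/80 ratio minus that of the same class 0.340, 0.283, -0.0922 and -0.353. The Ly-6g ratio minus that of all other kept barcodes was 0.169, 0.185, -0.00018 and -0.0318. The neutrophil list as a percentage of UMIs, minus that of full-depth gated barcodes, was 0.00907, 0.0698, -0.0146 and -0.187 percentage points.

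The gate also passed barcodes that no comparison used. Of the barcodes under 1500 genes without a passing hashtag, 334 (54.3%) met the marker gate. Their median Malat1 share was 0%, and 197 of them (59.0%) had no Malat1 UMI. The 281 that failed the gate had a median of 0.189%. Median UMIs were 964.5 and 1067, close to each other and below those of the kept barcodes.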

How the results depend on the processing

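The direction and call of Malat1 held under each alternative run, with log2 fold changes from -5.36 to -4.05 against other barcodes under 1500 genes. Of the genes of largest change, Malat1, Neat1, Siglec1, Cd68, Adgre1 and Itgax, which were recomputed, no called change reversed. The limits are few mice, 75 members in unimmunized mouse 2, a full-depth class that also held cells with monocyte genes (223 of 491 barcodes passed the gate again when thinned to 2840 UMIs), and gate genes read from the same RNA as the results.

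Counts of called genes against other barcodes under 1500 genes (3548) were 1580 with a hashtag share of 95%, 434 with fewer than 1000 genes, 1371 with at least 3 markers, 1889 and 2256 in captures 1 and 2, and 1135 to 2800 when each mouse was left out (1135 without unimmunized mouse 1, 2287 without immunized mouse 1). Against full-depth gated barcodes (3969) they were 1338 with fewer than 1000 genes, 2305 with 3 markers, 2287 with that class gated again after thinning, and 1884 (without unimmunized mouse 1) to 3588. Against all other barcodes (5901) they were 3513 with fewer than 1000 genes and 3433 (without unimmunized mouse 1) to 5840. For immunized against unimmunized members (76) they were 3 with a hashtag share of 95%, 30 with fewer than 1000 genes, 0 with 3 markers, 7 in capture 2, 29 with RLE factors, 134 with total counts, 277 without a filter on low counts, 231 with DESeq2, and 0 (without either unimmunized mouse) to 70. Higher and lower calls were 17 and 12 with RLE and 183 and 48 with DESeq2. The interaction (0) had 1 call with the class gated again, 65 without a filter, 3 with DESeq2 and 0 to 8 (without immunized mouse 1). With the mouse as a replicate block, the pairing gave 3859, 4378 and 5957 calls against the 3 classes and 3 for the interaction. Of the genes recomputed with it, it brought Siglec1 past the threshold against other barcodes under 1500 genes and against all other barcodes and changed the call of no other.

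Differences that changed sign, as centred log ratios: F4/80 against other barcodes under 1500 genes was 0.147 with fewer than 1000 genes, 0.176 with 3 markers and 0.578 with log2 counts. CD11c was -0.0600 to 0.00447 when each mouse was left out (0.00447 without unimmunized mouse 1) and 0.225 with log2 counts. Against full-depth gated barcodes, CD169 was -0.0349 with fewer than 1000 genes, -0.0309 with 3 markers, -0.000585 with the class gated again and -0.521 with log2 counts, F4/80 -0.0539 to 0.177 when each mouse was left out (-0.0539 and -0.0348 without unimmunized mouse 1 or 2) and -0.335 with log2 counts, and Ly-6g -0.0638 with log2 counts. Also with log2 counts, F4/80 against all other barcodes was 0.157 and Ly-6c between conditions -0.0317. As shares of UMIs in percentage points, ribosomal protein genes against other barcodes under 1500 genes were -1.55 with 3 markers. Lymphocyte genes against full-depth gated barcodes were 0.00147 with a hashtag share of 95%, 0.00196 with fewer than 1000 genes, 0.0260 with 3 markers and -0.0407 to 0.00518 when each mouse was left out (0.00518 without immunized mouse 2). Neutrophil genes were 0.00164 with fewer than 1000 genes, 0.0236 in capture 2, 0.00656 with the class gated again and -0.0641 to 0.0214 when each mouse was left out (0.0214 without immunized mouse 2), and against all other barcodes 0.00510 with a hashtag share of 95%, 0.0148 with fewer than 1000 genes, 0.0125 in capture 2 and -0.0347 to 0.0107 when each mouse was left out (0.0107 without immunized mouse 1). Settings with fewer barcodes or mice hold fewer counts; otherwise the cause was not tested.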

Other observations

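Among barcodes whose sequence occurred in both captures, 8 met the gate for members. Their median Malat1 share was 0.634%, against 0% in members.

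Low Malat1 was also found among barcodes that failed the gate. Of other barcodes under 1500 genes, those with 500 to 750, 750 to 1000 and 1000 to 1250 genes had median Malat1 shares of 0.0641%, 0.0350% and 0.0421%, and those with 1250 to 1500 genes 1.17%. The upper quartiles of these bins were 0.500%, 1.19%, 1.72% and 1.98%, so each held barcodes with ordinary Malat1 beside barcodes with almost none. The gate markers summed to 955, 654, 409 and 257 CPM in these bins, although each barcode there held at most 1 marker or had a lymphocyte gene.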
